A study of Mus musculus with 9 samples.

Results

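The genes described here are 54 mouse splicing regulators, chosen by name: the SR and Tra2 proteins, the hnRNPs other than the ALS-linked hnRNPs A1 and A2B1, the polypyrimidine-tract and poly(C) binding proteins, tissue-type regulators such as muscleblind and quaking, and other RNA-binding proteins of splicing. The rule names genes and uses no measured value other than a minimum level. The list was, however, chosen with earlier results of these data known. All 54 were found in the table of 36121 genes, and 53 of them reached a mean of 1 normalized TPM (transcripts relative to the library total and corrected for length, scaled between libraries by the authors) over the 9 libraries, as did 15014 genes in all. RNA was sequenced from whole sciatic nerves of C57BL6 mice aged 21 days, with 3 mice in each of 3 genotypes and 2 females and 1 male in each. Mice are numbered 1 to 3 within a genotype, and values are given in that order. cKO mice were Cnp-Cre; Tardbp-fl/fl and lack both copies of Tardbp, the gene of TDP-43, where Cre has acted. cHet mice were Cnp-Cre; Tardbp-fl/+, and control mice were Tardbp-fl/fl with no Cre named in the labels. The study used Cnp-Cre to target Schwann cells and, in the central nervous system, oligodendrocytes. Whether it also acted in other cells of the nerve was not measured in these libraries. In whole nerve, fewer cells of a type and less RNA per cell cannot be told apart.

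SR proteins carry domains rich in arginine and serine and, bound to exonic enhancers, usually favour the use of an exon. Many hnRNPs bind exonic or intronic silencers and oppose it, although the effect of either family depends on where the protein sits relative to the splice site. Several of these genes hold ultraconserved cassette exons that lead their own transcripts to nonsense-mediated decay, which lets the proteins limit their own amounts. TDP-43, an RNA-binding protein of the hnRNP type, binds runs of alternating U and G and keeps cryptic exons out of transcripts. The comparisons here ask whether the transcript levels of the other regulators differ when Schwann cells lose it.

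The transcripts of the members themselves were searched for the sequence that TDP-43 binds, a run of at least 12 bases of alternating T and G on the sense strand of any transcript annotated in GENCODE M21 on GRCm38. The run was found in 9 of the 53 tested members (17.0%), against 2009 of the 14008 protein-coding genes tested (14.3%). Introns were searched only where an annotated transcript includes them. The members have more annotated transcripts (median 9, against 5), and the shares were not adjusted for this. The 4 runs that are shorter than the 30 bases printed are shown, because their flanks can be seen, with the alternating run in capitals. Those of Qk and Hnrnpr lie in the last exon, in the 3′ UTR of a coding transcript. Those of Rbm25 and Hnrnpm lie in transcripts annotated as retaining an intron.
Qk, chr17:10204788-10204817, minus strand, exon 8 of 8: gaTGTGTGTGTGTGTGTGTGTGTGTGTGct
Hnrnpr, chr4:136351605-136351634, plus strand, exon 11 of 11: ctcTGTGTGTGTGTGTGTGTGTGTGTttaa
Rbm25, chr12:83649656-83649685, plus strand: ttggtTGTGTGTGTGTGTGTGTGTGcatat
Hnrnpm, chr17:33676934-33676963, minus strand: tttgggGTGTGTGTGTGTGTGTGTttaatt
The runs measured 26, 23, 20 and 18 bases in this order. The other 5 members with a run were Hnrnpd, Hnrnph2, Hnrnpul1, Hnrnpul2 and Srsf3, at 33 to 50 bases. Those of Hnrnpul1, Hnrnpul2 and Srsf3 also lie in transcripts annotated as retaining an intron. These matches describe the annotated sequence only, and binding was not measured in these libraries.

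The members differed from other genes in their annotation. A transcript of the nonsense-mediated decay type was annotated for 32 of 53 (60.4%), against 27.6% of the protein-coding genes tested, and a retained-intron transcript for 42 of 53 (79.2%), against 56.8%. Their median number of annotated transcripts was 9, against 5, and these shares were not adjusted for it or for expression level. Pcbp1 and Hnrnpa0 have a single exon.

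Libraries were grouped by sample title. The genotype field of 3 libraries (cKO mice 1 and 2 and cHet mouse 1) gave another genotype than the title. Tardbp lay at 103, 94.2 and 103 normalized TPM in the cKO nerves, against 177, 179 and 186 in the cHet nerves and 185, 194 and 217 in the control nerves, so that every library titled cKO was below all others. The 10 Schwann cell markers summed to 76841 to 133632 normalized TPM and none was at 0 in any library. The 10 neuron markers summed to 1642 in cKO mouse 3, 1500 in cHet mouse 1 and 3820 in control mouse 2, against 182 to 382 in the other libraries. The 8 skeletal muscle markers summed to 8517 in cKO mouse 3 and 16252 in control mouse 1 and to 24.5 to 587 elsewhere, and the 8 adipocyte markers to 2190 and 3033 in control mice 1 and 3 and to 59.4 to 571 elsewhere. Over all genes, 235 of 15014 passed the test between cKO and control (1.57%), 140 higher (0.932%) and 95 lower (0.633%), 0 between cHet and control, where 408 had an unadjusted p under 0.05, and 256 between cKO and cHet (1.71%), 140 higher (0.932%) and 116 lower (0.773%). Without the 3 libraries whose genotype field differs, 0 genes and 0 members passed in any comparison, but that fit holds 1 cKO, 2 cHet and 3 control libraries, so the lone cKO library (mouse 3) is assumed to vary like the other groups.

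The splicing regulators were abundant and steady transcripts in the sciatic nerve. Their mean level over the 9 libraries had a median of 101 normalized TPM, against 15.6 for all genes tested, and 53 of 53 lay above that median of all genes, with 28 in the highest decile. Together the 53 members summed to 7212 to 7972 normalized TPM in the cKO nerves, 7250 to 7563 in the cHet nerves and 7114 to 7436 in the control nerves, so the groups overlapped. The SD between mice of one genotype had a median of 0.12 on the log2 scale over the members. It was 0.21 over all genes tested and 0.17 over the 6590 genes at or above the level of the lowest tested member. Those 6590 genes had a median level of 45.8 normalized TPM, below the 101 of the members, so they were not matched in level. Rbfox2 had the largest within-group SD, 0.47, and Rbm25 the smallest, 0.04.

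**Figure D1:**
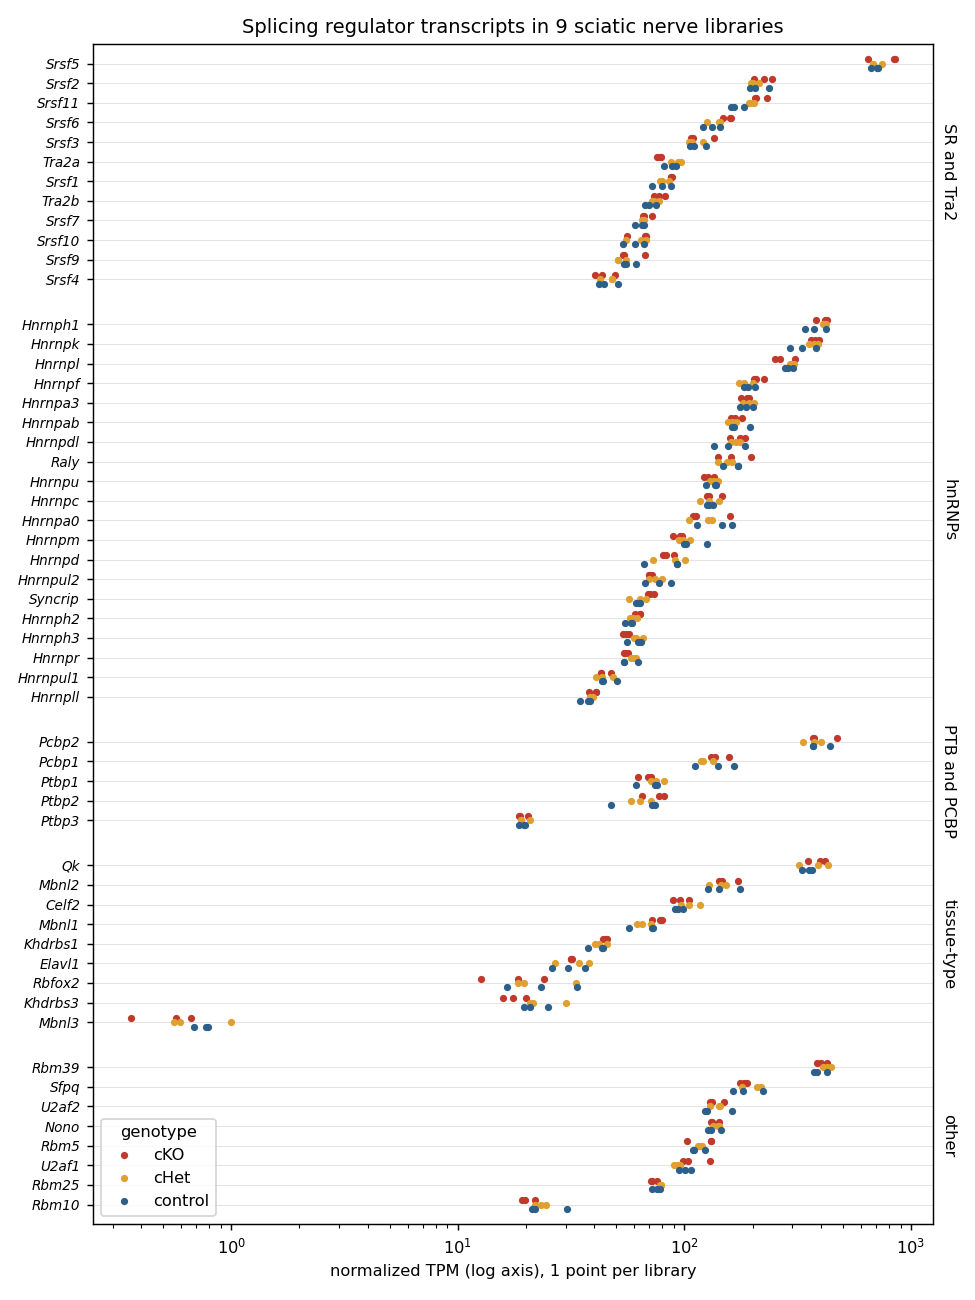
Normalized TPM (log axis) of the 54 listed splicing regulators, by role class and, within a class, by mean level, with 1 point per library (red cKO, yellow cHet, blue control). Points of the 3 genotypes lie within a narrow band for most genes, Srsf5 stands highest at 643 to 849, and Mbnl3 lies far to the left of all others, at about 1 or lower.

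Srsf5, an SR protein, had the highest level of all members, at 844, 849 and 643 normalized TPM in cKO nerves, 679, 742 and 679 in cHet nerves and 715, 668 and 705 in control nerves. Its lowest library was thus a cKO nerve and its highest libraries were the other cKO nerves. Rbm39, a protein related to U2AF that acts in 3′ splice site choice, was at 427, 386 and 399 in cKO, 410, 426 and 444 in cHet and 424, 373 and 383 in control nerves. Hnrnph1, which binds runs of G, was at 418, 427 and 382 in cKO, 410, 414 and 421 in cHet and 420, 342 and 375 in control nerves. The 3 genotypes overlapped for all 3 genes.

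Pcbp2, a poly(C) binding protein, was at 373, 472 and 370 normalized TPM in cKO, 334, 374 and 399 in cHet and 371, 370 and 441 in control nerves. Qk encodes quaking, an RNA-binding protein whose loss leaves the quaking mouse with too little myelin. It was at 396, 418 and 350 in cKO, 321, 432 and 389 in cHet and 353, 366 and 331 in control nerves. Below Srsf5, whose lowest library (643) was above the highest value of the next 4 (472), the ranges of Rbm39, Hnrnph1, Pcbp2 and Qk overlapped and their order was not separable. The lowest tested member was Ptbp3, at 19.4 normalized TPM on average. Mbnl3, the muscleblind paralogue below the minimum, was at 0.67, 0.36 and 0.57 in cKO, 1.0, 0.59 and 0.56 in cHet and 0.69, 0.79 and 0.77 in control nerves, and it was not tested.

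Between cKO and control nerves, 0 of the 53 members passed the test (limma, adjusted p under 0.05), against 1.57% of all genes. At so low a share of all genes, a count of 0 among 53 does not set the members apart. The smallest adjusted p was 0.117, for Srsf11. An unadjusted p under 0.05 was seen for 2 members (3.77%), against 12.9% of all genes. The cKO and control libraries did not overlap for 7 members (13.2%), against 17.4% of all genes. Higher in all 3 cKO nerves were Srsf6, Srsf11, Hnrnph2, Khdrbs1 and Syncrip (9.43% of members, 8.85% of genes), and lower in all 3 were Tra2a and Hnrnpm (3.77% of members, 8.57% of genes).

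The differences were small. The log2 fold change lay within 0.25 of 0 for 50 of 53 members (94.3%), against 64.8% of all genes and 73.9% of the 6590 genes at or above the lowest member. None of the 53 was past 0.5 in either direction, as 12.5% of all genes were. The 95% confidence interval of the change stayed within 1.5-fold in both directions for 50 of 53 members (94.3%), against 47.9% of all genes and 68.2% of those at or above the lowest member. The 3 members whose interval reached further were Rbfox2 (-1.14 to 0.37), Khdrbs3 (-0.66 to 0.10) and Ptbp2 (-0.18 to 0.64). The median log2 fold change was 0.03 over the members, -0.02 over all genes and 0.02 over those at or above the lowest member.

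**Figure D2:**
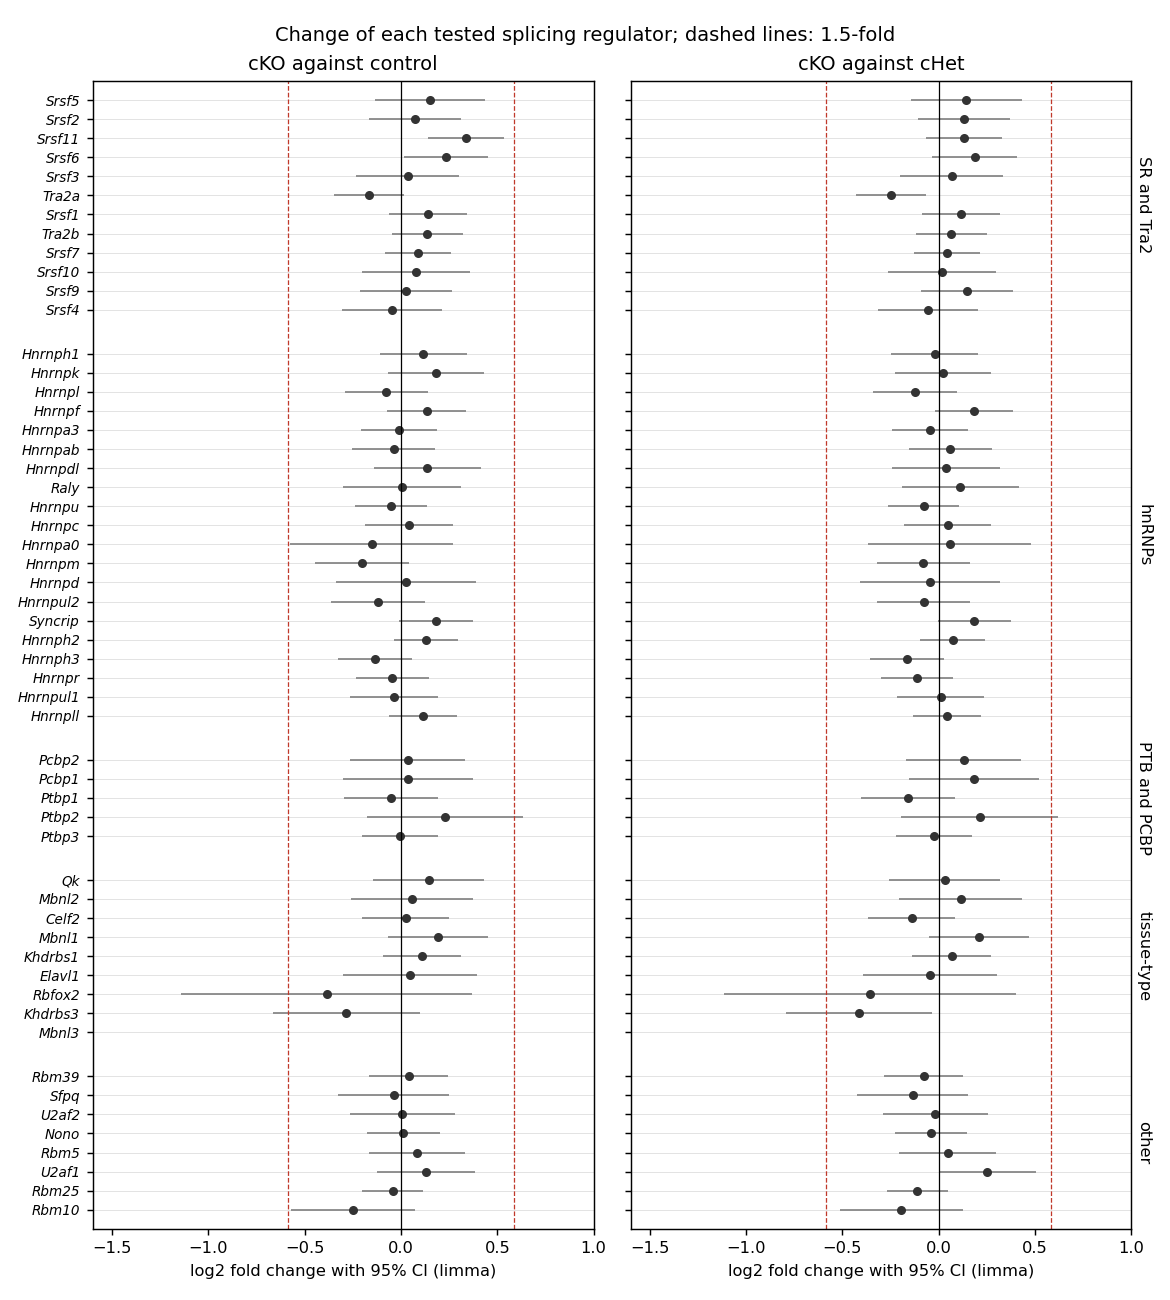
Log2 fold change of each tested member with its 95% confidence interval (limma), for cKO against control on the left and cKO against cHet on the right, with dashed lines at 1.5-fold. In each panel 50 of 53 intervals lie between the dashed lines, and those of Rbfox2, Khdrbs3 and Ptbp2 do not.

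Among the 12 SR and Tra2 genes, 10 had a positive log2 fold change between cKO and control nerves, with a median of 0.08, and none passed the test. Values rescaled to the same library sum gave a median of 0.02 with 8 of 12 positive, and the median was -0.01 with 6 of 12 positive without the 3 libraries whose genotype field differs from the title, where cKO is mouse 3 alone, a library high in neuron and skeletal muscle markers. Srsf11, an SR-related protein that binds the large U2AF subunit, is on chromosome 3 (158010473 to 158036639, minus strand, GRCm38). It was at 232, 208 and 206 normalized TPM in cKO nerves, 195, 192 and 202 in cHet nerves and 183, 161 and 166 in control nerves. The 3 genotypes did not overlap with each other for this gene, with cKO highest and control lowest. Its log2 fold change was 0.34 (SE 0.086, 95% interval 0.14 to 0.53) in cKO against control, with an adjusted p of 0.117 in limma, and this p lay between 0.116 and 0.971 over the alternatives. Without the 3 libraries whose genotype field differs, with 1 cKO library left, the change was 0.28.

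Srsf6, an SR protein that binds exonic enhancers, was at 161, 158 and 148 normalized TPM in cKO nerves, 125, 142 and 144 in cHet nerves and 132, 121 and 144 in control nerves. All cKO nerves were above all others, by a small margin. The log2 fold change against control was 0.24 (SE 0.096, limma adjusted p = 0.345), and the mean in cKO was 118% of that in control nerves. Tra2a, one of the Tra2 proteins that bind GA-rich exonic enhancers, was lower in all cKO nerves than in any other, at 75.7, 78.2 and 79.2 in cKO, 87.2, 93.5 and 96.6 in cHet and 88.6, 81.6 and 92.2 in control nerves. Its log2 fold change was -0.17 against control (SE 0.079, limma adjusted p = 0.434). The other SR genes were Srsf1, Srsf2, Srsf3, Srsf4, Srsf7, Srsf9 and Srsf10, and with Srsf5 and Tra2b they lay between -0.04 and 0.15.

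Tra2b, the close paralogue of Tra2a, was singled out after its values were seen. It was at 73.3, 82.3 and 77.2 normalized TPM in cKO, 73.4, 71.8 and 77.0 in cHet and 69.5, 75.2 and 66.9 in control nerves, so that its log2 fold change of 0.14 against control had the opposite sign to that of Tra2a. The ratio of Tra2a to Tra2b was 1.0 ± 0.046 in cKO nerves, 1.25 ± 0.058 in cHet nerves and 1.25 ± 0.15 in control nerves (SD, n = 3 each). Every cKO ratio was below every cHet and control ratio. With 3 mice against 3 the exact two-sided permutation test cannot go below 0.1, and it gave 0.1 for each comparison with cKO, or 0.6 after adjustment over the 12 tests of 4 such paralogue ratios. All 4 ratios were chosen after values were seen, so these p-values are descriptive only. The ratios of Ptbp1 to Ptbp2, Mbnl1 to Mbnl2 and Pcbp1 to Pcbp2 overlapped between the genotypes in every comparison.

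**Figure D3:**
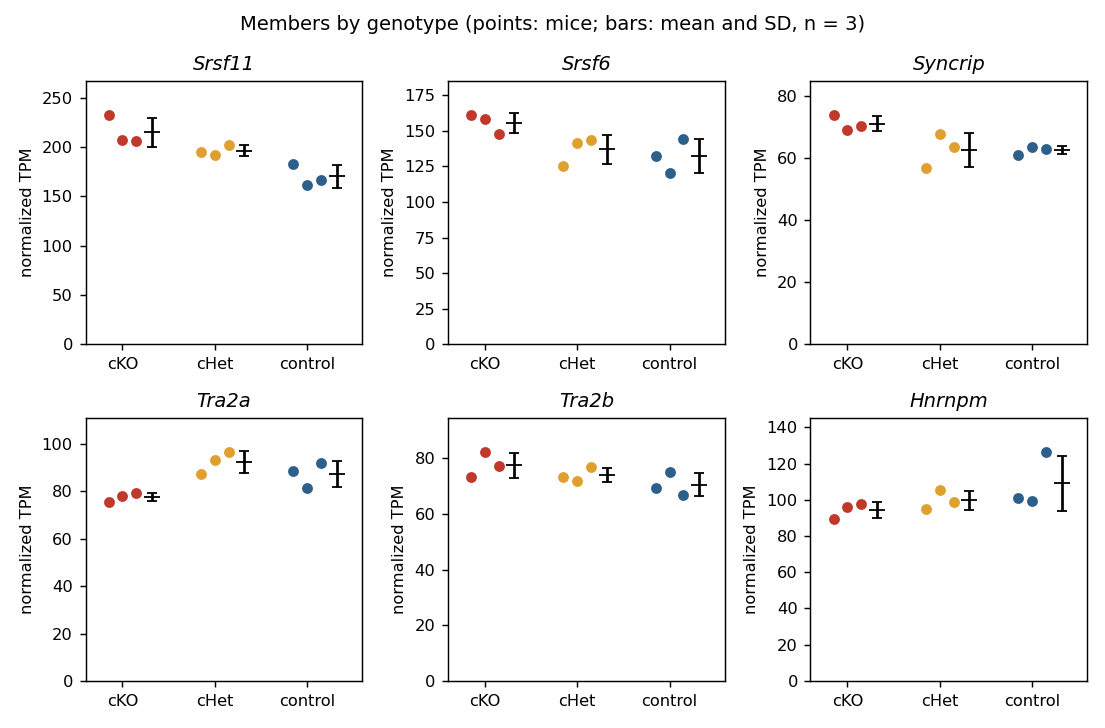
Normalized TPM of Srsf11, Srsf6, Syncrip, Tra2a, Tra2b and Hnrnpm in each mouse (points) with the mean and SD of each genotype (bars, n = 3), on axes that start at 0. Srsf11, Srsf6 and Syncrip are highest in the cKO nerves, Tra2a is lowest there, and the high control point of Hnrnpm is mouse 3.

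The 20 hnRNP genes split evenly between cKO and control nerves, with 10 above and 10 below 0 and a median log2 fold change of -0.001. Syncrip, also called hnRNP Q, acts in mRNA stability and translation as well as splicing. It was at 73.8, 69.0 and 70.5 normalized TPM in cKO nerves, 56.8, 67.6 and 63.5 in cHet nerves and 61.1, 63.5 and 63.0 in control nerves. Each cKO nerve was above every cHet and control nerve, and the log2 fold change against control was 0.18 (SE 0.084, limma adjusted p = 0.411). Hnrnpm, whose protein binds GU-rich sequence and which holds one of the alternating runs printed above, was at 89.5, 95.9 and 97.5 in cKO, 94.9, 105 and 98.9 in cHet and 101, 99.6 and 126 in control nerves. Its log2 fold change was -0.20 (SE 0.11, limma adjusted p = 0.491). The highest control value belonged to mouse 3, 1 of the 2 libraries high in adipocyte markers, and without that mouse the change was -0.09. The part of adipose tissue in this difference was not tested.

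Hnrnph2, a paralogue of Hnrnph1 that binds runs of G, averaged 62.5 ± 1.7 normalized TPM in cKO nerves and 57.1 ± 2.3 in control nerves (SD, n = 3 each), without overlap, for a log2 fold change of 0.13. The remaining hnRNP genes (Hnrnpa0, Hnrnpa3, Hnrnpab, Hnrnpc, Hnrnpd, Hnrnpdl, Hnrnpf, Hnrnph1, Hnrnph3, Hnrnpk, Hnrnpl, Hnrnpll, Hnrnpr, Hnrnpu, Hnrnpul1, Hnrnpul2 and Raly) lay between -0.15 and 0.18. Hnrnpm shares part of its locus with March2, and Syncrip with Gm20537, on the same strand, so reads of any shared exon may not be separable. Hnrnph3 overlaps Rufy2 on the opposite strand, where reads of any shared exon may not be separable unless the counting used strand. Overlaps were taken from whole gene spans, and whether exons are shared was not examined. Overlaps on the opposite strand with genes above 1 normalized TPM were also annotated for Hnrnpab, Hnrnpk, Hnrnpu, Pcbp2, Ptbp1, Elavl1, Rbm10 and Srsf2.

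Of the 5 polypyrimidine-tract and poly(C) binding genes, 3 were above 0 and 2 below between cKO and control nerves. Ptbp1 is the repressor that most non-neuronal cells use to keep neuronal exons out, and Ptbp2 is its paralogue of the nervous system. Ptbp2 averaged 74.5 ± 8.2 normalized TPM in cKO and 64.5 ± 15 in control nerves, and Ptbp1 67.6 ± 4.5 in cKO and 70.3 ± 8.0 in control nerves (SD, n = 3 each), with overlap in both. Pcbp1 and Ptbp3 had log2 fold changes of 0.04 and -0.01.

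Among the 8 tested tissue-type regulators, 6 were above 0 and 2 below. Khdrbs3, a STAR-family protein best known from splicing in the brain, was at 15.9, 20.1 and 17.5 normalized TPM in cKO nerves, 30.1, 20.8 and 21.5 in cHet nerves and 20.8, 25.1 and 19.6 in control nerves. The cKO and control values overlapped, and the log2 fold change was -0.28 (SE 0.17, limma adjusted p = 0.546). Mbnl1, a muscleblind protein, averaged 76.4 ± 3.9 in cKO and 67.2 ± 8.9 in control nerves, and Khdrbs1, also called Sam68, 44.7 ± 0.97 in cKO and 41.5 ± 3.3 in control nerves (SD, n = 3 each). Mbnl2, Celf2, Qk and Elavl1 lay between 0.02 and 0.14 on the log2 scale.

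Rbfox2, which binds UGCAUG beside regulated exons, was the most variable member and was singled out after its values were seen. It was at 18.5, 12.6 and 24.0 normalized TPM in cKO nerves, 33.3, 18.4 and 19.7 in cHet nerves and 23.3, 33.4 and 16.4 in control nerves. The highest value in each genotype came from the library high in neuron markers (cKO mouse 3, cHet mouse 1, control mouse 2). Its log2 fold change against control was -0.39 (SE 0.33, limma adjusted p = 0.713). Rbfox2 was the only member of 53 highest in these libraries in every genotype (1.89%), a pattern shared by 13.4% of all genes. The opposite pattern, lowest in these libraries in every genotype, was seen for 6 members, Srsf5, Srsf6, Hnrnph1, Hnrnpu, Elavl1 and Pcbp2 (11.3%), against 4.47% of all genes. cKO mouse 3 was also high in skeletal muscle markers, summing to 8517 normalized TPM, against 216 and 587 in cKO mice 1 and 2. The part of neuronal or muscle RNA in these levels was not tested.

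**Figure D4:**
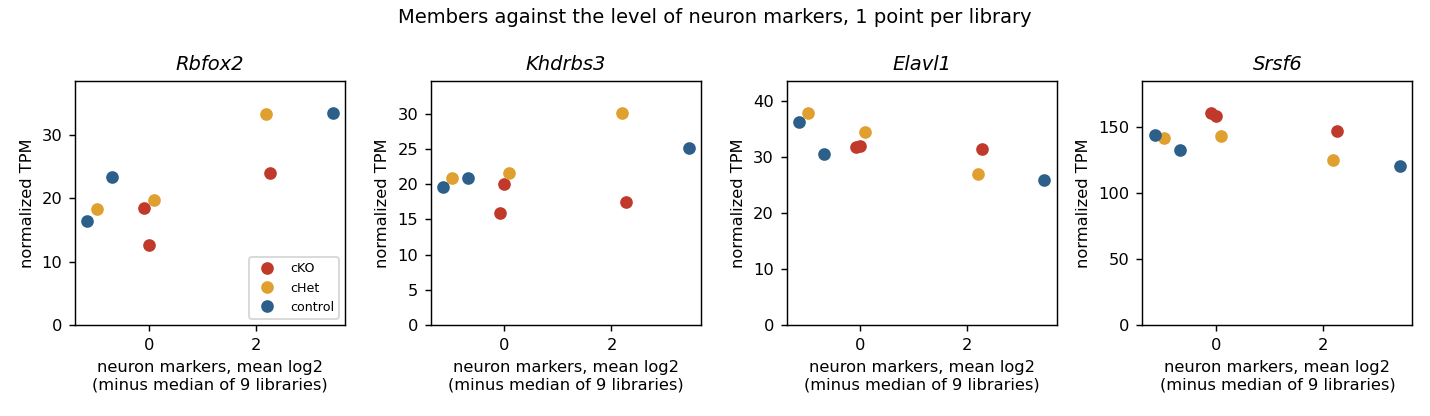
Normalized TPM of Rbfox2, Khdrbs3, Elavl1 and Srsf6 against the mean log2 level of 10 neuron markers, given as the difference from the median of the 9 libraries, with 1 point per library. The 3 libraries at the right carry the highest Rbfox2 and the lowest Elavl1 and Srsf6 value of their genotype. They also carry the highest Khdrbs3 value in the cHet and control nerves, but not in the cKO nerves. Khdrbs3 is lower in all 3 cKO nerves than in any cHet nerve and overlaps between cKO and control nerves.

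The 8 other splicing RNA-binding proteins comprised Rbm5, Rbm10, Rbm25, Rbm39, the U2AF subunits U2af1 and U2af2, and the paraspeckle proteins Sfpq and Nono, and 5 were above 0 and 3 below. Rbm10, a regulator of exon skipping, was at 19.8, 21.8 and 19.2 normalized TPM in cKO nerves, 22, 24.4 and 23.4 in cHet nerves and 21.3, 21.9 and 30.4 in control nerves. Its log2 fold change against control was -0.25 (SE 0.14, limma adjusted p = 0.521). As for Hnrnpm, the high control value was that of control mouse 3, and the change was -0.09 without it. Rbm10 overlaps Ndufb11 on the opposite strand, a gene at 178 normalized TPM. Rbm5, a paralogue of Rbm10, averaged 122 ± 16 in cKO and 114 ± 8.2 in control nerves (SD, n = 3 each).

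Between cHet and control nerves, which differ in 1 functional Tardbp allele and in Cre, 0 of 53 members passed the test, as did 0 of all genes. Of the 95% intervals, 51 of 53 stayed within 1.5-fold, all but those of Rbfox2 and Hnrnpa0. An unadjusted p under 0.05 was seen for 1 member (1.89%), against 2.72% of all genes. The groups did not overlap for Srsf11 and Rbm25, both higher in cHet (3.77%, against 7.1% of all genes in either direction and 2.69% in this one). Srsf11 had a log2 fold change of 0.21 (SE 0.086, limma adjusted p = 1.0). Rbm25 differed by 0.07, and its cHet values had an SD of 0.34 normalized TPM around a mean of 78.7.

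The other members with the smallest p in this comparison overlapped between the genotypes. Celf2, a CELF protein that binds GU-rich sequence, was at 96.7, 118 and 104 normalized TPM in cHet and 98.4, 94.2 and 90.8 in control nerves, and at 104, 88.9 and 95.6 in cKO nerves. Hnrnpk, a poly(C) binding hnRNP, was at 373, 354 and 389 in cHet and 381, 331 and 293 in control nerves, and at 395, 360 and 379 in cKO nerves. Their log2 fold changes in cHet against control were both 0.16. On the lower side, Srsf9 was at 50.9, 55.1 and 51.0 in cHet and 54.1, 55.4 and 61.1 in control nerves, and at 53.6, 66.7 and 54.2 in cKO nerves. Hnrnpa0, an hnRNP that binds AU-rich elements, was at 127, 132 and 104 in cHet and 113, 147 and 162 in control nerves, and at 113, 159 and 109 in cKO nerves. The log2 fold changes were -0.12 for Srsf9, -0.21 for Hnrnpa0 and -0.12 for Hnrnpm, all with a limma adjusted p of 1.0. Single libraries set much of these sizes. Without control mouse 3 the change was -0.07 for Srsf9, -0.10 for Hnrnpa0, -0.01 for Hnrnpm and 0.06 for Hnrnpk. Without control mouse 1 it was -0.36 for Hnrnpa0 and 0.25 for Hnrnpk, and without control mouse 2 it was -0.18 for Hnrnpm. Without cHet mouse 2 it was 0.09 for Celf2, and without cHet mouse 3 it was -0.11 for Hnrnpa0.

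Between cKO and cHet nerves, which both carry Cnp-Cre and differ in the second Tardbp allele, 0 of 53 members passed the test, against 1.71% of all genes. This share is again too low for a count of 0 among 53 to set the members apart. An unadjusted p under 0.05 was seen for 2 members (3.77%), against 14.6% of all genes. The groups did not overlap for 14 members (26.4%), close to the 24.3% of all genes. Higher in all 3 cKO nerves were Srsf1, Srsf6, Srsf11, Hnrnpf, Mbnl1, Syncrip and U2af1 (13.2% of members, 13.3% of genes), and lower in all 3 were Tra2a, Hnrnph3, Hnrnpr, Ptbp1, Khdrbs3, Rbm10 and Rbm25 (13.2% of members, 11% of genes). Both cKO comparisons use the same cKO mice, so members named in both are not independent observations.

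U2af1, the small U2AF subunit that reads the AG of the 3′ splice site, was at 98.7, 130 and 104 normalized TPM in cKO nerves against 92.6, 89.7 and 95.3 in cHet nerves, and at 94.9, 107 and 101 in control nerves. Its log2 fold change was 0.25 (SE 0.11, limma adjusted p = 0.345), and 0.13 without cKO mouse 2. Hnrnpf, which binds runs of G, was at 207, 225 and 202 in cKO against 174, 201 and 184 in cHet nerves, and at 184, 191 and 204 in control nerves. It differed by 0.18 and Syncrip by 0.19 on the log2 scale, with limma adjusted p of 0.392 and 0.360, and Syncrip by 0.12 without cHet mouse 1. For both U2af1 and Hnrnpf the highest of all libraries was cKO mouse 2.

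Tra2a had the smallest p of the members in this comparison, with a log2 fold change of -0.25 (SE 0.079, 95% interval -0.43 to -0.07, limma adjusted p = 0.195), and its mean in cKO was 84.1% of that in cHet nerves. With array weights, which give less weight to libraries that deviate from the fit, the change was -0.28 with an adjusted p of 0.0343, in a fit that called 848 genes in all. Khdrbs3 had the largest difference, -0.41 (SE 0.17, limma adjusted p = 0.30), of which the high cHet value of 30.1 is the library high in neuron markers. Hnrnph3, an hnRNP of the H family, was at 55.5, 57.0 and 53.4 in cKO against 60.9, 65.6 and 59.9 in cHet nerves, and at 64.3, 55.5 and 62.5 in control nerves, and differed from cHet by -0.17 (limma adjusted p = 0.415). Without cHet mouse 1, the difference of Khdrbs3 was -0.25.

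The sign of the SR and Tra2 median in this comparison depended on scaling. For the SR and Tra2 genes the median log2 fold change was 0.09 with 10 of 12 positive, but -0.05 with 2 of 12 positive when values were rescaled to the same library sum. Without rescaling, the median was 0.02 over all genes and 0.07 over the 6590 genes at or above the lowest tested member. The SR and Tra2 median of 0.09 was thus close to that of the 6590 genes. Rescaling to the same sum moved the median of all genes to -0.12, so relative to all genes the SR and Tra2 genes were above. They were not compared with the 6590 genes under that scaling. Quantile normalization gave -0.02 with 4 of 12 positive, against -0.01 for all genes, so that they were not above under this scaling. The medians of the tissue-type and of the other RNA-binding genes were negative under all 4 scalings, at -0.15 to -0.01 and -0.20 to -0.06. The tissue-type median turned positive without cHet mouse 2 (0.05, with 5 of 8 positive) and without cHet mouse 3 (0.007). That of the other RNA-binding genes stayed negative in every alternative, at -0.20 to -0.04.

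Other genes of the splicing machinery were counted from lists. None of 9 SR protein kinases and regulators passed the test in any comparison. Of 38 core snRNP proteins, 1 fell and 0 rose in cKO against control and likewise against cHet. This was Snrnp70, the U1-70K protein that binds the stem of U1 snRNA, at 174, 196 and 158 normalized TPM in cKO nerves, 284, 318 and 308 in cHet nerves and 282, 304 and 395 in control nerves. It fell by 0.88 against control (limma adjusted p = 0.0227) and by 0.79 against cHet (limma adjusted p = 0.0324) on the log2 scale, with no overlap. Of 50 tested genes among 53 other splicing regulators, 1 rose and 0 fell. This was Celf1, which binds GU-rich elements, at 32.1, 52.1 and 30.7 in cKO nerves, 18.1, 18.5 and 19.9 in cHet nerves and 17.5, 20.2 and 19.4 in control nerves. Over all genes, 1.57% passed in cKO against control and 1.71% in cKO against cHet. At these shares, 1 call in a list of 38 or 50 does not set the list apart.

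Celf1 rose by 0.95 on the log2 scale against control (limma adjusted p = 0.0498) and by 0.96 against cHet (limma adjusted p = 0.0456). Leaving out 1 library at a time moved the adjusted p against control to 0.0393 to 0.129 for Celf1 and to 0.0379 to 0.109 for Snrnp70. Celf1 kept its call only without cKO mouse 2, and Snrnp70 lost it without cKO mouse 1 (0.109), cKO mouse 3 (0.0845) or cHet mouse 3 (0.0568). Against cHet the range was 0.0356 to 0.177 for Celf1 and 0.0153 to 0.147 for Snrnp70. Without the 3 libraries whose genotype field differs, when 1 cKO library stood against 3 control libraries, the limma adjusted p was 0.513 for Celf1, 0.468 for Snrnp70 and 0.358 for Tardbp, at log2 fold changes of 0.68, -1.03 and -0.94. Of 8 ALS-linked RNA-binding proteins, only Tardbp itself passed the test, with a log2 fold change of -0.98 against control (limma adjusted p = 0.00219) and -0.85 against cHet (limma adjusted p = 0.00391). No gene of these lists passed the test between cHet and control nerves.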

How the data were processed

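RNA was extracted with Trizol, and libraries were made with an Illumina TruSeq kit. Per the submitters' processing notes, the tools were kallisto 0.44.0 and sleuth 0.30.0 with GRCm38. Not given in the sources used here are how libraries were scaled to each other, which transcript annotation was used and whether the kit kept strand. The deposited table holds 1 signal per gene and library, named normalized TPM by the authors, in which library sums ran from 934932 to 1158094. The study gives a range of reads per library but none for each library, and TPM keep no depth, so the counting error of a value cannot be computed. Symbols were found for 35471 of 36121 gene IDs.

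Genes whose 9 values averaged 1 or more were tested with limma 3.58.1 (R 4.3.3) on log2(value + 0.5), with a mean-variance trend, in 1 model of 3 groups, with Benjamini-Hochberg adjustment over 15014 genes and a threshold of 0.05. Fold changes are on that scale. Several members have processed pseudogenes, and reads shared with them were divided by the kallisto estimate. The scripts were tested on simulated data with the spread of all genes tested. In cKO against control, log2 changes of 0.5, 1 and 2 were recovered in 11.9%, 46.3% and 83.3% of the changed genes. The median SD between mice of one genotype was 0.12 for the members and 0.21 for all genes tested, so these rates need not hold for the members. No change smaller than 0.5 was simulated. Changes of the size seen in the members could be missed, but how often was not measured. The study describes mice taken in sets from the same or the nearest litters, but the labels do not name the sets, and p-values measure the spread between mice. The members and lists were chosen with earlier results of these data known. Values in every library are given for the 3 members with the smallest p in each direction and comparison, the 5 highest and the lowest, other members by class with up to 3 examples, and genes of other lists only where past the threshold. Alternatives were other pseudocounts, filters, scalings, covariates, variance models and left-out libraries.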

Additional observations from a re-analysis of the deposited data

How the results depend on the processing

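Over 24 alternatives, 0 of 53 members passed the threshold in cKO against control and in cHet against control, and in cKO against cHet the count was 0 in all but 1: array weights gave 1 (Tra2a). The median log2 fold change of the members moved by more than the spread between replicates under these settings. Rescaled to the same library sum, it was -0.032 in cKO against control, 0.11 in cHet against control and -0.11 in cKO against cHet, where the median of all genes was -0.09, 0.05 and -0.12. Quantile normalization gave 0.11 in cHet against control and -0.048 in cKO against cHet. Without the 3 libraries whose genotype field differs from the title, which leaves 1 cKO and 2 cHet libraries, it was -0.00039 in cKO against control and -0.049 in cKO against cHet. Leaving out 1 library at a time gave 0.009 to 0.05 in cKO against control, 0.009 to 0.04 in cHet against control and -0.012 (without cKO mouse 2) to 0.0395 in cKO against cHet. Hnrnpm in cHet against control reversed to 0.00037 without the 2 libraries high in adipocyte markers, which leaves control mouse 2 alone, an alternative chosen, like that on skeletal muscle markers, after seeing the data. The cause of these shifts was not tested.

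Calls over all genes, 235 in cKO against control and 256 in cKO against cHet, were 89 and 96 with no filter, 50 and 176 with only the 2 groups compared, 184 and 848 with array weights, 16 and 14 without the libraries high in neuron markers, 23 and 40 without those high in skeletal muscle markers, 19 and 173 without those high in adipocyte markers (1 control library left), and 0 and 0 without the 3 libraries whose genotype field differs (1 cKO library left). A lone library is assumed to vary like the other groups. Leaving out 1 library gave 50 to 179 and 55 to 274. Rescaling to the same sum changed the split of higher to lower calls in cKO against cHet to 90 and 202, against 140 and 116. The call of Snrnp70 against control was lost in 9 of 24 alternatives and that of Celf1 in 20, and against cHet in 12 and 17. The call of Tardbp was lost in 3 and 2, each with 2 or 3 libraries left out. No paired analysis was possible because the labels give no replicate numbers shared between genotypes and do not say which mice formed a litter-matched set.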
